A study of Mus musculus with 4 samples.

Results

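The genes of the cell division cycle and of DNA replication were followed in Langerhans cells, dendritic cells that sample antigen in the epidermis, from mice given TCDD or its vehicle. A set of 40 genes was chosen by function: licensing and copying of DNA, nucleotide supply, G1 control, entry into mitosis, and mitosis itself. Of these, 39 were represented by 78 probe sets that the platform annotation assigns to that gene alone, out of 20380 such probe sets for 12393 genes on the array. Expression of Ccnb1, which encodes cyclin B1, was not analysed here; only its promoter was. TCDD is a dioxin and a ligand of the aryl hydrocarbon receptor, a transcription factor. The labels give 10 µg TCDD to the live mouse, isolation of the cells after 24 h and sorting of Langerhans cells to 95% purity. The sources used here do not state strain, age, sex or the number of animals behind an array.

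There were 4 arrays, 2 per group. Control 1 and TCDD 1, called preparation 1, carry no skin site in their titles, and control 2 and TCDD 2, called preparation 2, come from back skin. For control 1 the labels give DMSO with olive oil, for TCDD 1 TCDD in oil, and for TCDD 2 an injection of TCDD in DMSO and oil into the peritoneum. That the arrays of a preparation share an experiment is assumed from the titles alone, and the controls come from different experiments. Whether a preparation stands for a site or an experiment cannot be told apart. The treatment field of control 2 gives the TCDD injection while its description calls it a control; the description was followed, and the fit was also made without that array. Values are MAS5 signals on a linear scale, in arbitrary units. Because the labels do not say that arrays come from separate animals, the spread between arrays may be technical. In sorted cells, fewer cells of a type and less RNA per cell cannot be told apart.

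A cell that divides first licenses its replication origins: the origin recognition complex, Cdc6 and Cdt1 load the ring-shaped helicase Mcm2 to Mcm7 in G1. D-type cyclins with Cdk4 or Cdk6, and E-type cyclins with Cdk2, then phosphorylate the retinoblastoma protein, which frees E2F factors to turn on the genes of S phase. Cyclins A and B with Cdk1 drive the later steps, and the genes for these mitotic proteins depend on Foxm1 and on NF-Y, the factor that binds CCAAT boxes. Langerhans cells are renewed largely by division in the epidermis itself, at a low rate in resting skin.

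The arrays differed in RNA quality and in markers of other cells. For the actin control probe sets, 3′ over 5′ signal reached 49.7 on control 1 and lay between 3.48 and 7.71 elsewhere, where a high ratio goes with shortened RNA. All 12 Langerhans cell markers passed the expression filter; Epcam, an adhesion molecule of these cells, read between 7541 and 10032. Cd207, which encodes langerin, read 2119.9, 5343, 7211 and 2155; lists of 4 signals here and below follow the order control 1, TCDD 1, control 2, TCDD 2. The summed signal of 10 measured T cell markers was 862 and 1636 on control 1 and TCDD 1, and 2401 and 851 on control 2 and TCDD 2, with 7 of them above the filter. It was thus high on TCDD 1 and control 2. Summed signals of 10 keratinocyte markers lay between 1016 and 1280, of 5 melanocyte markers between 847 and 1377, and of 6 fibroblast markers between 639 and 1014. Those of 7 monocyte, granulocyte and mast cell markers lay between 671 and 845, and those of 5 B cell and erythroid markers between 335 and 435. Above the filter were 4 of the keratinocyte, 5 of the melanocyte and 2 of the fibroblast markers. So were 3 of the monocyte, granulocyte and mast cell markers and 1 of the B cell and erythroid markers.

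The upstream regions of 5 members are shown. The brightest probe sets of Mcm2, Mcm3 and Mcm6 were lower after TCDD in preparation 1 and higher in preparation 2. Cdk1 and Ccnb2 stand for the mitotic genes whose signals were low. Each run gives the 110 bases before the annotated start site on the gene's strand, 5′ to 3′, from RefSeq (GRCm38.p6). All 5 genes lie on the minus strand: Mcm2 at chr6:88898781-88898890, Mcm3 at chr1:20820313-20820422, Mcm6 at chr1:128359706-128359815, Cdk1 at chr10:69352913-69353022 and Ccnb2 at chr9:70421555-70421664. Capitals mark matches, on either strand, to CCAAT, to the cell cycle homology letters TTTGAA or TTCGAA, and to the E2F letters TTTGGCGC, TTTCCCGC, TTTGCCGC or TTTCGCGC.
Mcm2: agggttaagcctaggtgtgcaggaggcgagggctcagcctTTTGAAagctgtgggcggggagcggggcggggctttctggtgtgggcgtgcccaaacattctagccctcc
Mcm3: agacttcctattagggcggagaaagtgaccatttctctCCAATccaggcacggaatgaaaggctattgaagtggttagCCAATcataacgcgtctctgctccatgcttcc
Mcm6: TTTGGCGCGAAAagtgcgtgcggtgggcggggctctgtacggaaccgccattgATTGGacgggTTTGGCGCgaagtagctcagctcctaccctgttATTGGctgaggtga
Cdk1: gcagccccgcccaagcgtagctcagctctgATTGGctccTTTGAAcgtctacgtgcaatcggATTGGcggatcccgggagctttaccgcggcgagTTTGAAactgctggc
Ccnb2: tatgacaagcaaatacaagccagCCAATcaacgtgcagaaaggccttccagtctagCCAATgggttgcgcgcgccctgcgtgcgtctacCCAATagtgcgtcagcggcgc
The printed stretch of Mcm6 held 3 E2F matches, of which the leftmost pair overlap, and 2 CCAAT boxes. Mcm3 had 2 CCAAT boxes and Mcm2 a match to TTTGAA. Cdk1 had 2 CCAAT boxes and 2 matches to TTTGAA, and Ccnb2 had 3 CCAAT boxes. A promoter was listed for 31 of the 40 genes, and not for Cdc25c, Ccnd2, Ccne2, Aurkb, Rb1, Ccna2, Foxm1, Ccnd1 and Mcm4. In the 250 bases before the start site, 22 of the 31 (71%) held CCAAT, against 37.5% of 27025 genes with a listed promoter of the same length. The E2F letters were found in 6 (19.4%, against 2.16%) and the cell cycle homology letters in 9 (29%, against 19.6%). CCAAT and the homology letters occurred together in 9 (29%, against 7.93%). These are matches of letters, not measured binding sites.

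Of the 39 measured genes, 27 had a brightest probe set above the expression filter, a geometric mean signal of 115 over the 4 arrays, and 45 of the 78 probe sets passed it. The other 12 genes made up 30.8% of those measured, near the 32.1% of all single-symbol genes below the filter. These were Cdc6, Rrm2, Tyms, Tk1, Ccne2, Cdk6, Ccnb2, Cdk1, Cdc25c, Bub1, Bub1b and Birc5. Across their probe sets no signal exceeded 163.7. Just inside the filter lay probe sets of Aurkb and Kif11, with mean log2 signals of 6.92 and 6.95, and just outside it Ccne2, Ccnb2 and a further Foxm1 probe set, with 6.85, 6.80 and 6.36.

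**Figure D1:**
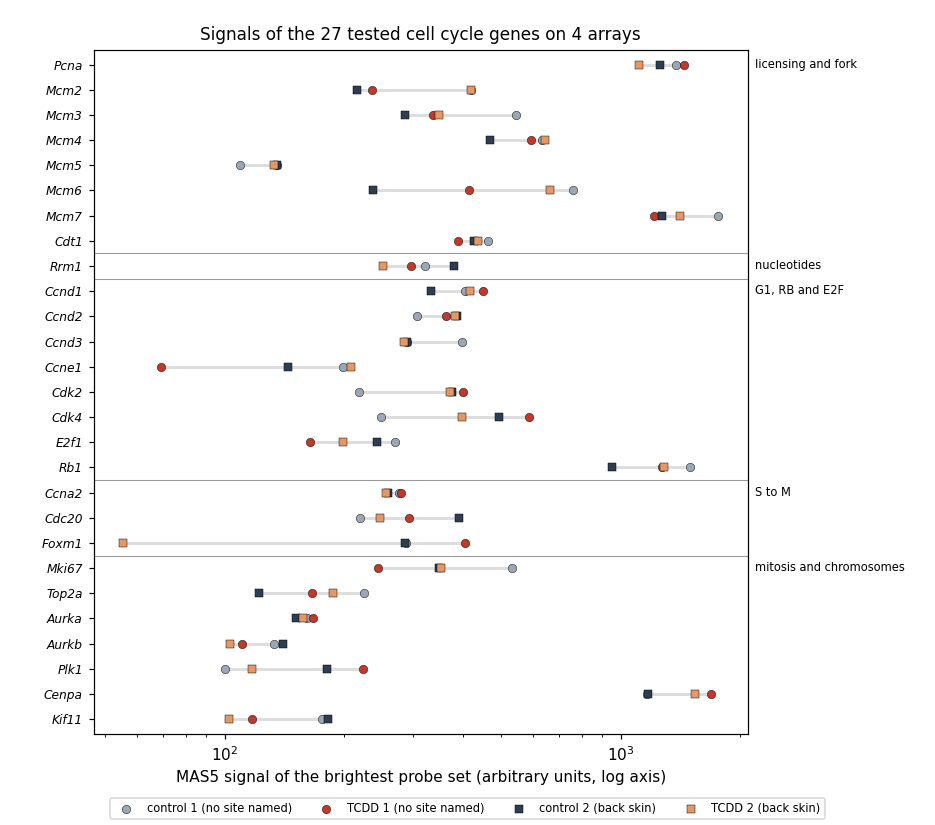
MAS5 signals (log axis, arbitrary units) of the brightest probe set of each of the 27 tested genes on the 4 arrays, grouped by role; each point is 1 array and the grey bar spans them. The 4 arrays of a gene mostly lie close together, and the widest span belongs to Foxm1, from 55.5 on TCDD 2 to 404.2 on TCDD 1.

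The comparison of TCDD with control asked whether genes of division differ in Langerhans cells a day after the dioxin. Among the 45 tested probe sets of these genes, 0 passed the test (limma with treatment and preparation as terms, every adjusted p at least 0.9999), where 0% of all 13576 tested probe sets passed. At an unadjusted p under 0.05 there was 1 of 45 (2.22%), against 1.47% of all: 1 higher (all: 0.906%) and 0 lower (all: 0.56%). Both TCDD arrays lay above both controls for 7 probe sets (15.6%, against 12.4% of all) and below both for 7 (15.6%, against 13.2%). These shares lie near the background. Of the same 45, quantile normalization gave 10 above and 6 below, and median centring 9 and 6, with the shares over all not computed. With no filter the counts were 11 and 14 of 78 probe sets, where all probe sets gave 12.8% and 14.9%. Leaving out control 1 let 0.0884% of all probe sets pass the adjusted test, and leaving out control 2 let 2.1% pass, with 0 members in either case. Those fits had treatment as the only term, and without control 2 both TCDD arrays are set against control 1 alone. In the main fit the median log2 difference was -0.001 over the 27 genes by their brightest probe set, against -0.03 over all 8413 tested genes. The 95% interval of a member probe set reached a median of 0.89 log2 units to either side, so smaller differences were mostly not detectable with 4 arrays. That interval is not adjusted for the number of probe sets tested. Larger differences also went without a call, such as 1.24 for a Kif11 probe set, so the 0 calls do not exclude them. A comparison of 2 against 2 arrays cannot go below p = 0.333 in a two-sided exact permutation test.

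**Figure D2:**
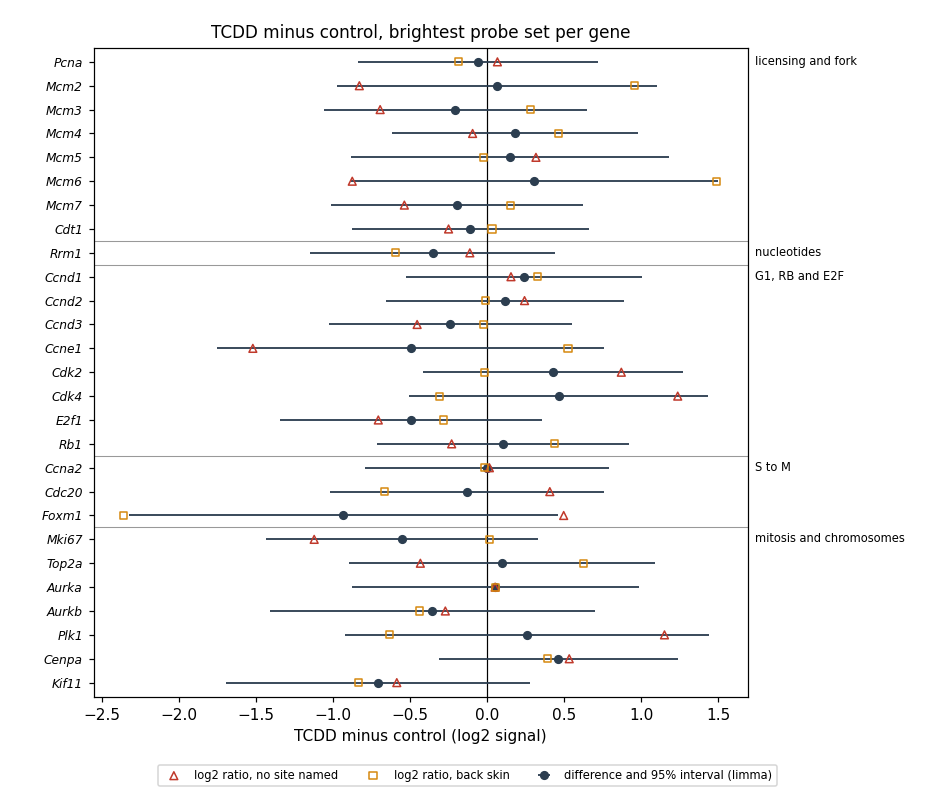
TCDD minus control in log2 signal for the 27 tested genes: the filled point and bar are the difference and its 95% interval (limma, 2 arrays per group), the open triangle the log2 ratio in preparation 1 and the open square that in back skin. All 27 intervals span 0, and for Mcm2, Mcm6, Ccne1, Foxm1 and Plk1 the ratios of the preparations lie far apart on opposite sides of 0.

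The replication genes showed no common shift between TCDD and control. Pcna, the sliding clamp of the replication fork, read 1380.3 and 1446 on control 1 and TCDD 1, and 1262 and 1111 on control 2 and TCDD 2. The groups overlapped, and the log2 difference, TCDD minus control, was -0.06 ± 0.34 (SE from the fit of 2 against 2 arrays, as for all differences below). Cdt1, which loads the helicase, read 463.5, 389.7, 427.4 and 437.1. Its values also overlapped, with a difference of -0.11 ± 0.34. Of the 8 tested licensing and fork genes, 0 were higher and 0 lower after TCDD in both preparations by their brightest probe set. Of all tested genes, 17.9% were higher and 22.8% lower in both. Of the 8, 6 were lower in preparation 1 and higher in preparation 2 (all: 27.9%), and 2 the reverse (all: 31.4%).

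The helicase subunits carried most of that pattern. Mcm2 read 418.8, 235.8, 215.9 and 419.2. Control 1 and TCDD 2 were high and TCDD 1 and control 2 low, so the groups overlapped and the difference was 0.06 ± 0.46. Mcm6 was high and low on the same arrays, with 758.4, 413.5, 236.9 and 665.1 (0.31 ± 0.52). Mcm3 read 545.1, 337 and 285.5, then 347.1 on TCDD 2, and was highest on control 1 (-0.21 ± 0.37). For Mcm7 the signals were 1765, 1217, 1270.2 and 1409.7, again highest on control 1 (-0.19 ± 0.36). Mcm4 read 634.8, 594.8, 468.2 and 644.6, with only control 2 low (0.18 ± 0.35). Mcm5 had another order: it read 109.2 on control 1 and 136, 135.6 and 133.4 elsewhere (0.15 ± 0.45).

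Over the 13 tested probe sets of Mcm2 to Mcm7, a set formed after their values were seen, 9 (69.2%) were lower after TCDD in preparation 1 and higher in preparation 2, against 25.8% of all tested probe sets. Under quantile normalization it was 10 of 13, against 31.2%, and under median centring 10 of 13, against 37.2%. Several of these probe sets share a gene and are not independent. On single arrays, 7 of the 13 were highest on control 1 and 5 on TCDD 2, and 7 were lowest on control 2. The summed signal of the 13 was 6423, 4678, 4195 and 5701. It ran opposite to the summed T cell markers, which were low on control 1 and TCDD 2. Cd207 was low on those arrays too. The 4 keratinocyte markers above the filter summed to 854, 758, 653 and 894, high on control 1 and TCDD 2 as the helicase was. Over all 10 measured keratinocyte markers, only TCDD 2 stood high. Control 1 had the highest 3′ to 5′ ratios and TCDD 2 the next highest. The part of cell content and of RNA quality in the pattern was not tested.

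Probe sets of the same helicase gene did not all follow it. A further Mcm6 probe set read 267.9, 70.2, 172.4 and 171. It was low on TCDD 1 alone (-0.97 ± 0.53), while the brighter one gave a positive difference. The dimmer Mcm2 probe set, below the filter, read 57.6, 87.4, 120.4 and 58.1, high where the brighter one was low. The dimmest tested Mcm3 probe set had 142.3 and 147.5 in control cells and 181 and 200 with TCDD, both TCDD arrays above both controls (0.39 ± 0.40), while the others gave -0.21 and -0.23. The least bright Mcm7 probe set read 211.2 and 280.5 in control cells and 303.7 and 309.5 with TCDD (0.33 ± 0.35), against -0.19 for the brightest. The brightest probe sets of Mcm4 and Mcm6 carry the suffix x_at, and those of Mcm2, Mcm3 and Mcm7 the suffix s_at, by which Affymetrix marks probes that can also match other transcripts. Of all 45 tested probe sets, 8 are x_at and 5 are s_at.

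**Figure D3:**
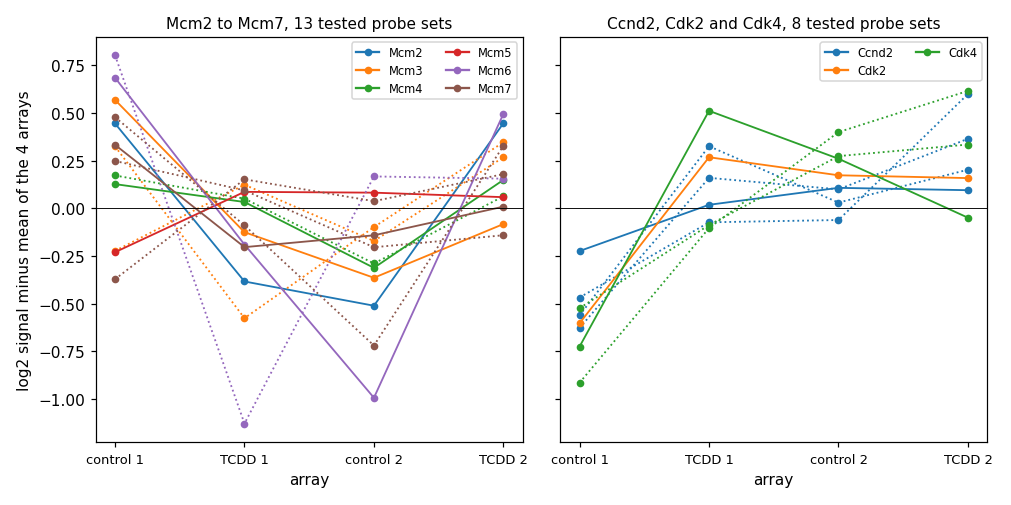
log2 signal minus the probe set's mean over the 4 arrays, for the 13 tested probe sets of Mcm2 to Mcm7 (left) and the 8 of Ccnd2, Cdk2 and Cdk4 (right); lines join the values of 1 probe set, solid for the brightest of a gene and dotted for its others. Most helicase probe sets are high on control 1 and TCDD 2, and all 8 on the right are lowest on control 1.

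Of the nucleotide supply genes, Rrm1 alone was tested. It encodes the large subunit of ribonucleotide reductase, the enzyme that makes deoxynucleotides. It read 320.3 and 378.8 in control cells and 296.4 and 251 with TCDD, so that both TCDD arrays lay below both controls. The difference was -0.35 ± 0.35 and did not pass the test. Its other probe set read 217.7 and 446.9 in control cells and 194.3 and 201.3 with TCDD, likewise without overlap (-0.66 ± 0.39). In that probe set control 2 stood high and the other 3 arrays were close together. Below the filter, Rrm2, the small subunit, read 57.4, 52.9, 103.4 and 28 by its brightest probe set. Tyms, thymidylate synthase, read 59.9, 20.8, 94.6 and 50.9 by its own. Both TCDD arrays lay below both controls for each of them, and for the further Rrm2 probe sets. The further Tyms probe sets did not agree. One lay below both controls, with 62.8, 9.5, 106.9 and 8.1, and another overlapped, with 17.6, 63.1, 64.1 and 18.9. Tk1, thymidine kinase, stayed between 16.9 and 36.4. Signals this low carry no firm order.

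In the G1 group the D-type cyclins, which couple growth signals to the cycle, gave readable signals for all 3 genes. Ccnd1 read 404.1 and 332.5 in control cells and 449.8 and 417.7 with TCDD. Both TCDD arrays lay above both controls, by little (0.24 ± 0.34, and 0.10 without control 2). Ccnd2 read 307, 363.2, 386.3 and 383, lowest on control 1 (0.12 ± 0.34). Its 3 other tested probe sets gave 0.53 each, of the same sign and with standard errors between 0.35 and 0.41. Ccnd3 read 396.7 on control 1 and 289.5, 288.3 and 284.1 elsewhere. It was high on control 1 alone, opposite to Ccnd2 (-0.24 ± 0.35). Its difference was -0.008 without control 1 and -0.47 without control 2.

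Cdk4 and Cdk2 were both lowest on control 1. Cdk4, partner of the D-type cyclins, read 248.7, 586.1, 492.4 and 397.4 (0.46 ± 0.43). Its 2 other tested probe sets also had their lowest value on control 1, 215.4 and 75.9, and gave 0.25 ± 0.35 and 0.51 ± 0.44. Cdk2, partner of the E-type cyclins, read 218.8 on control 1 and 400.1, 374.7 and 370.9 elsewhere (0.43 ± 0.37). TCDD 2 and control 2 differed little for Cdk2, with a log2 ratio of -0.015 in preparation 2 against 0.87 in preparation 1. All 8 tested probe sets of Ccnd2, Cdk2 and Cdk4, grouped after their values were seen, were lowest on control 1, against 31.7% of all tested probe sets, and so were all 8 under quantile normalization and median centring. That array had the 3′ to 5′ actin ratio of 49.7, whose part in these values was not tested. Without control 1 the difference was 0.04 for Cdk2, -0.05 for Ccnd2 and -0.03 for Cdk4. Without control 2, the array with the doubtful treatment field, it was 0.82, 0.28 and 0.96. Those differences take control 1, where all 8 were lowest, as the only control, so they do not bear on that field.

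E2f1, the founding E2F factor, read 268.8 and 242.8 in control cells and 164.8 and 199.4 with TCDD. Both TCDD arrays lay below both controls (-0.50 ± 0.37), without passing the test. Its other probe set overlapped (-0.15 ± 0.42). Rb1, the retinoblastoma protein that restrains E2F, read 1497, 1276, 952.2 and 1287, lowest on control 2 (0.10 ± 0.36). Ccne1, an E-type cyclin, read 198.7, 69.3, 144.9 and 208.5. Only TCDD 1 was low among these, and its log2 ratio was -1.52 in preparation 1 and 0.52 in preparation 2 (-0.50 ± 0.55). Ccne2, the other E-type cyclin, lay just below the filter with 114.2, 115.7, 163.7 and 81.6. Cdk6, also below it, read 48.9, 127.4, 12.9 and 65.3, both TCDD arrays above both controls.

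In the group that drives S phase into mitosis, 3 genes were tested. Ccna2, cyclin A2, read 276, 278.8, 259.1 and 256, close together on all 4 arrays (-0.001 ± 0.35). Its other probe set was low on TCDD 1, at 103.1 against 215.5, 227.8 and 240.6 (-0.49 ± 0.43). Cdc20, the activator of the anaphase-promoting complex, read 220.3, 292.1, 391.7 and 246.7, highest on control 2 (-0.13 ± 0.39). Its other tested probe set read 187.4 and 234.7 in control cells and 161.2 and 165.8 with TCDD, both TCDD arrays below both controls (-0.36 ± 0.39). Foxm1, the transcription factor of mitotic genes, stood out on TCDD 2. It read 286.5, 404.2 and 285.1 on the other arrays and 55.5 on TCDD 2 (-0.93 ± 0.61). The 55.5 lies below the filter's mean signal, and without TCDD 2 the difference was 0.50. Another Foxm1 probe set, below the filter, was also lowest on TCDD 2, with 103.9, 94, 158 and 29.5, and the remaining pair read between 4.3 and 22.6.

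The partners in this group ran in different orders over the arrays. Cdk1, the mitotic kinase, lay below the filter at 89.4, 33.1, 53.2 and 79.8, lowest on TCDD 1. Ccnb2, cyclin B2, lay below it at 117.1, 131.7, 120.7 and 82.9, lowest on TCDD 2 as Foxm1 was. Plk1, polo-like kinase, which acts in mitosis, read 100.5, 223.2, 181.3 and 117.1. It was high on TCDD 1 and control 2, as were the summed T cell markers and Cd207 (0.26 ± 0.52). Whether cell content contributed to Plk1 was not tested. Cdc25c, the phosphatase that activates Cdk1, read between 8.5 and 44.2.

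Among mitotic and chromosome proteins, Mki67, the proliferation marker Ki-67, read 532.1, 244.4, 349 and 353.1. Control 1 was high and TCDD 1 low, while the back skin arrays were nearly equal (-0.55 ± 0.39). The difference was -0.25 without control 1 and -0.86 without control 2. Top2a, topoisomerase II, read 224.6, 166.4, 122 and 188.4, with the arrays in the same order as for Mcm6 (0.10 ± 0.44). Aurka, a spindle kinase, was steady at 161.4, 167.3, 151.6 and 157.4 (0.05 ± 0.41). Aurkb, the kinase of the chromosomal passenger complex, read 133.2 and 140.3 in control cells and 110.4 and 103.5 with TCDD, without overlap (-0.36 ± 0.46).

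Cenpa, the histone H3 variant of centromeres, was, with Ccnd1, the only tested gene whose brightest probe set lay above both controls on both TCDD arrays. It read 1169.7 and 1175 in control cells and 1692 and 1540.2 with TCDD. The controls were nearly equal, and the log2 ratios were 0.53 in preparation 1 and 0.39 in preparation 2 (0.46 ± 0.34). Leaving out any array kept the difference between 0.39 and 0.53, without a call. Kif11, the spindle motor Eg5, gave opposite answers from its probe sets. The brightest read 176.1 and 182.8 in control cells and 117.3 and 102.5 with TCDD, lower on both TCDD arrays (-0.71 ± 0.43). Another read 105.5 and 61.1 in control cells and 185.7 and 194.6 with TCDD, higher on both (1.24 ± 0.48). The latter was the only member probe set with an unadjusted p under 0.05 (limma, unadjusted p = 0.03, adjusted p = 0.9999). No direction can therefore be given for Kif11.

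Other genes also had tested probe sets of different sign. Of 12 genes with at least 2 tested probe sets, 7 had differences of the same sign and 5 of opposite sign: Mcm3, Mcm6, Mcm7, Cdt1 and Kif11. For Mcm3, Mcm7 and Cdt1 each of these differences was smaller than its standard error. The share over all genes was not computed. Below the filter in this group, Bub1, a kinase of the spindle checkpoint, read between 36.8 and 72.6 by its brightest probe set. Its relative Bub1b read between 27.1 and 54.2. Birc5, survivin, read 93.9 on control 1 and 23.7, 30.3 and 30.4 elsewhere. Cdc6 read 63.4, 13.6, 6.8 and 33.1, with control 1 and TCDD 2 again the higher arrays.

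The preparations were then set side by side, with the ratio of TCDD to control taken within each pair of arrays, a pairing that rests on the titles. Over the 27 genes, 3 were higher in both (11.1%, against 17.9% of all tested genes), 5 lower in both (18.5%, against 22.8%), 10 lower in preparation 1 and higher in preparation 2 (37%, against 27.9%) and 9 the reverse (33.3%, against 31.4%). Over the 45 probe sets the same counts were 12 (26.7%, against 19.3%), 8 (17.8%, against 21.3%), 16 (35.6%, against 25.8%) and 9 (20%, against 33.6%). At least 2-fold, 0 of the 45 probe sets differed the same way in both preparations and 0 differed opposite ways. Of all 13576 tested probe sets, 36 differed the same way and 145 opposite ways, so the counts of 0 lie near the background. The genes higher in both were Ccnd1, Aurka and Cenpa, and those lower in both Rrm1, Ccnd3, E2f1, Aurkb and Kif11. The ratios of preparations 1 and 2 had a Pearson's r of -0.43 across the 27 genes, and of -0.23 across all 8413 tested genes. By probe set the order was the other way, with -0.16 across the 45 members and -0.25 across all 13576; genes share arrays and are not independent replicates.

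**Figure D4:**
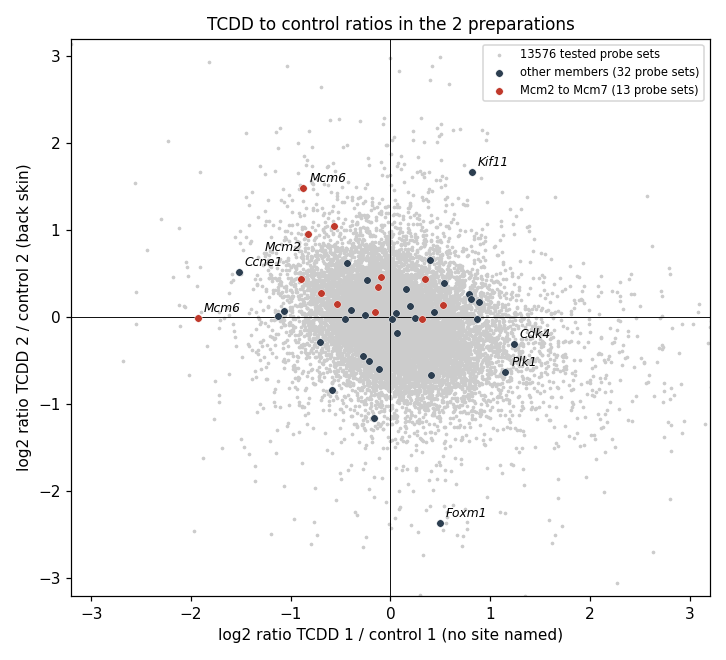
log2 ratio of TCDD 1 to control 1 (horizontal) against that of TCDD 2 to control 2 (vertical) for all 13576 tested probe sets (grey, with 31 outside the plotted range) and the 45 member probe sets. Helicase probe sets (red) lie mostly in the upper left, lower in preparation 1 and higher in preparation 2, and Foxm1 lies lowest among the members.

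Back skin was also compared with preparation 1, to see whether division genes differ with the site or the experiment. Again 0 of the 45 member probe sets passed (limma, smallest adjusted p = 0.9994), where 0% of all passed and, without TCDD 1, 0.656% of all and 0 members. At an unadjusted p under 0.05 there were 2 (4.44%, against 2.02% of all), 1 higher (all: 1.05%) and 1 lower (all: 0.972%). Foxm1 was lower in back skin (-1.44 ± 0.61), which rests on the 55.5 of TCDD 2. A Cdk4 probe set was higher (1.02 ± 0.44), from 75.9 and 133.2 in preparation 1 to 188.8 and 219.3 in back skin. The other Cdk4 probe sets gave 0.61 ± 0.35 and 0.21 ± 0.43. The median over the 27 genes was -0.07, against 0.005 over all tested genes.

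Further genes of the same pathways, from lists chosen with earlier results of these data known, also gave 0 calls in either comparison. As 0% of all tested probe sets passed, no list could have given a call. Of 32 tested replication genes, both TCDD arrays lay above both controls for 4 and below for 5, against 11.4% and 14.1% of all tested genes. Fen1, the flap endonuclease of lagging strands, read 1449 and 1380 in control cells and 2604 and 1954 with TCDD (0.67 ± 0.34). Gins1, a part of the active helicase, read 210.8 and 159 in control cells and 82.8 and 120.8 with TCDD (-0.87 ± 0.47). Mcm10 and Orc4 lay above the controls (0.32 ± 0.35 and 0.26 ± 0.34), and Pola1 and Rfc2 below (-0.26 ± 0.41 and -0.26 ± 0.35). None of these passed the test.

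Of 26 tested mitosis genes, 3 lay above and 2 below both controls, against the same 11.4% and 14.1% of all tested genes. Kif4, a chromosome-bound motor, read 240.5 and 235.5 in control cells and 127.1 and 94.2 with TCDD (-1.12 ± 0.41; limma, unadjusted p = 0.0245, adjusted p = 0.9999). Both TCDD arrays were low, while the controls lay close together. The others above the controls were Hmmr, Tpx2 and Racgap1, between 0.25 and 0.43, and the other below was Smc2 (-0.26 ± 0.37). Of 12 tested RB, E2F and DREAM regulators, E2f4 (0.38 ± 0.36) and Skp2, the ubiquitin ligase subunit that removes cell cycle inhibitors (0.31 ± 0.34), lay above both controls and 0 lay below, against those same shares. Lower in preparation 1 and higher in preparation 2 were 13 of 26 genes of the mitosis list and 13 of 32 of the replication list. Among the RB, E2F and DREAM regulators it was only 2 of 12, and among all tested genes 27.9%. The reverse order held for 4 of 26, 4 of 32 and 6 of 12, against 31.4% of all tested genes.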

How the data were processed

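The labels name total RNA from sorted Langerhans cells, extracted with Trizol, amplified with MessageAmp and labelled with biotin, 1 array per sample. The authors deposited 1 linear MAS5 intensity per probe set and array; affy and MAS5 are listed in the submitters' processing notes, and versions, background settings and detection calls are not stated in the sources used. Each array has a trimmed mean of 500, so the authors' values had been scaled. RNA amplified from the 3′ end makes a signal depend on the distance of the probes from that end.

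Signals were taken to log2 without further normalization. The 64 control probe sets were left out. Of 22626 others, 20380 had 1 gene symbol, 691 several and 1555 none in the platform annotation; only the first kind was named. The 13576 with a mean log2 signal at or above the 40th percentile (6.85) were fitted (limma 3.58.1, R 4.3.3) on treatment plus preparation, with 1 residual degree of freedom, a variance trend and Benjamini-Hochberg adjustment at 0.05 over all of them. The fit was checked on simulated arrays. Their planted changes were larger than any member difference here and came without a preparation effect, so that check does not bear on smaller differences. A gene stands for its brightest probe set by mean log2. The number of arrays limits the precision. As to the pairing, the difference between preparations in control and in TCDD had r = -0.18 across probe sets, so arrays of a preparation did not deviate together.

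The members and gene lists were chosen with earlier results of these data known. All 40 members are accounted for; from the other pathway lists, up to 3 genes per direction whose groups did not overlap are named, those with the largest difference. Alternatives were quantile normalization, median centring, other filters, an offset of 32, no variance trend, no preparation term, 1 probe set per gene and each array left out. The fits with an array left out had no preparation term for TCDD and no treatment term for back skin. Promoter sequences came from RefSeq (GRCm38.p6); the array files name no build.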

Additional observations from a re-analysis of the deposited data

Results flagged for a closer look

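Among the 45 tested member probe sets, 3 had ratios of TCDD to control of opposite direction and at least 1.5-fold in each preparation. The share of all tested probe sets at that size was not computed. At any size, 25.8% of all were lower in preparation 1 and higher in preparation 2, and 33.6% the reverse. Opposite directions were thus frequent on these arrays. Each ratio comes from a single pair of arrays, and the difference between preparations was not tested. The log2 ratio of Mcm2 was -0.83 in preparation 1 (no site in the titles) and 0.96 in preparation 2 (back skin). That of the brightest Mcm6 probe set was -0.88 and 1.49. Plk1 ran the other way, with 1.15 and -0.63. Groups of 2 arrays were too small for a check of outlying samples.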

How the results depend on the processing

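The count of 0 member probe sets past 0.05 held in both comparisons under all alternatives run, including each array left out. Over all probe sets the count for TCDD was between 0 and 285 when an array was left out: 12 without control 1 and 285 without control 2, in fits where a group of 1 array takes its spread from the rest. For back skin it was between 0 and 89, the 89 without TCDD 1. Arrays did not pair by preparation, and with no replicate block the count for TCDD stayed at 0; the crossed replicate block, chosen after seeing the data, gave 10 probe sets, of which 0 were members. The median over the member genes ranged from -0.22 to 0.008 when an array was left out, with -0.22 without control 2. Without control 2, TCDD is set against control 1 alone, the array with the actin 3′ to 5′ ratio of 49.7. The part of RNA quality in those values was not tested. Member probe sets with both TCDD arrays above both controls numbered 11 of 78 with no filter, 3 of 24 with the stricter filter and 2 of 27 with 1 probe set per gene; those below numbered 14, 1 and 4. These alternatives take other numbers of probe sets. On the same 45 probe sets, quantile normalization gave 10 above and 6 below, and median centring 9 and 6, against 7 and 7 on the deposited signals. The shares over all probe sets under those scalings were not computed. Quantile normalization turned the sign of Ccna2 (0.002), and the other scaling, filter and variance alternatives turned none of the 27 gene differences. Leaving out an array turned the sign of 16 of the 27, and none of them passed 0.05. Their log2 differences ranged as follows: Mcm5 -0.010 to 0.30, Ccnd2 -0.051 to 0.28, Ccne1 -1.29 to 0.30, Cdc20 -0.55 to 0.28, Rb1 -0.22 to 0.43, Ccna2 -0.063 to 0.060, Pcna -0.25 to 0.13, Mcm3 -0.67 to 0.26, Cdk4 -0.029 to 0.96, Mcm2 -0.41 to 0.54, Mcm4 -0.036 to 0.40, Mcm7 -0.43 to 0.044, Mcm6 -0.53 to 1.15, Plk1 -0.20 to 0.73, Foxm1 -2.36 to 0.50 and Top2a -0.34 to 0.54. The cause was not tested.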
